A study of Mus musculus with 10 samples.

Results

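The genes of de novo lipogenesis, the synthesis of palmitate from citrate, were examined in the liver of mice labelled ApoE-/-. The group compared with controls was labelled as having received a dominant negative form of cJun. The 9 genes were chosen by role: the citrate carrier Slc25a1, the acetyl-CoA suppliers Acly and Acss2, the carboxylases Acaca and Acacb, the synthase Fasn, the NADPH source Me1, and the regulators Thrsp and Mlxipl, which encodes ChREBP. They are 9 of 18193 genes with a probe set of their own on the array and were read by 21 of 45037 probe sets. Of these probe sets 17 had a mean signal above the filter on dim probe sets, and all 9 genes were among the 12736 genes tested. In the RefSeq table of build GRCm38.p6, Acaca (chr11:84129635-84401651), Acly (chr11:100476352-100528000) and Fasn (chr11:120805958-120825166) lie on chromosome 11, and Acacb (chr5:114146321-114250761) and Mlxipl (chr5:135089890-135139768) on chromosome 5. Acss2 is at chr2:155518043-155562743, Thrsp at chr7:97412933-97417550, Me1 at chr9:86581363-86695914 and Slc25a1 at chr16:17925211-17928219. A further probe set that the annotation shares between Acss2 and another gene was not used.

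The study compared 2 groups of 5 mice, each mouse on its own Affymetrix array. All 10 mice carry the ApoE-/- label. The control group received an adenovirus with GFP, a fluorescent protein, and the other group an adenovirus with dominant negative cJun (dn-cJun), a form that blocks the AP-1 transcription factor of which cJun is a subunit. Age, sex, diet, feeding state, virus dose and the time after infection are not stated by the labels used here. Arrays are named by their numbers in the labels, controls 11 to 15 and dn-cJun 16 to 20.

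In de novo lipogenesis, citrate leaves the mitochondrion through the carrier encoded by Slc25a1 and is cleaved to acetyl-CoA by ATP citrate lyase (Acly), while Acss2 makes acetyl-CoA from acetate. Acetyl-CoA carboxylase (Acaca in the cytosol, Acacb at the mitochondrial surface) forms malonyl-CoA, and fatty acid synthase (Fasn) builds palmitate from it with NADPH, part of which malic enzyme (Me1) supplies. In the liver the pathway is induced by feeding, through insulin and SREBP-1c and through the glucose-responsive factor ChREBP, and Thrsp (Spot 14) is a small protein induced along with it.

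Facts about the arrays bear on every comparison below. Apoe, the gene named as lost in all mice, had a log2 signal of 10.25 ± 0.59 (SD, n = 5) in the controls and 15.66 ± 0.21 (SD, n = 5) in the other group, which goes against the ApoE-/- label. Whether the probe set lies within the disrupted stretch of the gene was not examined. The second group is therefore called dn-cJun-labelled. In every comparison below, a difference in Apoe between the groups cannot be told apart from an effect of dn-cJun. Jun did not check the virus label (log2 fold change -0.07, SE 0.17, limma adjusted p = 0.890). Controls 14 and 15 had high signals of Xist, at 13.71 and 13.63 against 5.90 to 6.72 on the other 8 arrays. Their signals of Y-linked genes were low, a pattern of female mice that no dn-cJun-labelled array had. The groups thus appear unbalanced in sex, and its part in the shifts below was not tested. The results of the 9 genes and the gene lists are therefore also given without these 2 controls. The 3 prime to 5 prime log2 difference, a measure of RNA integrity, was -0.51 to -0.40 in controls and -0.52 to -0.35 in dn-cJun-labelled arrays for Gapdh (exact permutation p = 0.429), and 0.40 to 0.52 and 0.43 to 0.60 for Actb (exact permutation p = 0.341).

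None of the 9 genes passed the threshold over all 10 arrays, and they did not move one way. In dn-cJun-labelled arrays 5 of the 9 were lower and 4 higher, with a median log2 fold change of -0.04, against a median of 0.0015 and 49.7% lower among all genes tested. None passed at a limma adjusted p under 0.05, a call made for 0.777% of all genes, and 1 of 9, Me1, had an unadjusted p under 0.05, as 14.9% of all genes did. Among all genes 44 were called higher and 55 lower, a split that was 22 and 468 with the values as deposited and 20 and 45 with equal array medians. Without controls 14 and 15, 8 of 9 were lower with a median of -0.14, Me1 passed, and 3 had an unadjusted p under 0.05 (Me1, Acly and Fasn). The background was then 0.408% of genes called, 13.7% with an unadjusted p under 0.05 and 48.8% lower. A model term for these controls likewise sets the dn-cJun-labelled arrays against the remaining controls, so it is no separate check. It gave 8 of 9 lower, beside 49.1% of all genes. Of the 17 probe sets of the 9 genes above the filter, 10 were lower (50.8% of all probe sets), 3 had an unadjusted p under 0.05 (13.3%) and none passed at a limma adjusted p under 0.05 (0.692%). Without controls 14 and 15, 14 of the 17 were lower (50.8%), 8 had an unadjusted p under 0.05 (11.8%) and 2 passed (0.289%). With the model term, which makes the same comparison, 2 passed (0.847%). Probe sets of 1 gene, and genes that vary together, are not independent, so these counts are not counts of separate results. Of the controls left without 14 and 15, control 12 was the highest in every gene but Me1. In bulk liver RNA, fewer cells of a type and less RNA per cell cannot be told apart.

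**Figure D1:**
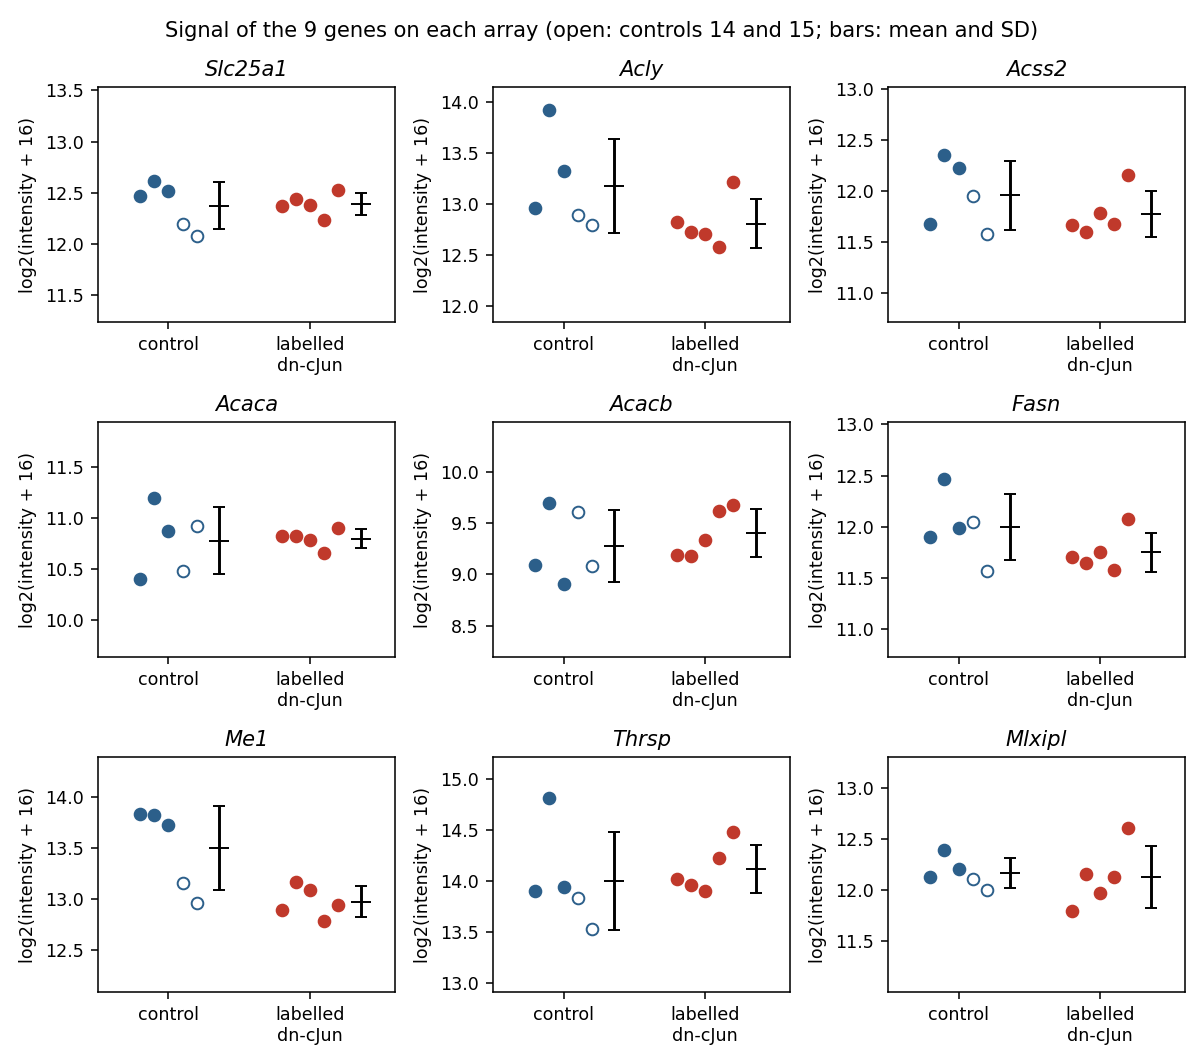
Signal of the 9 genes on each array, as quantile-normalized log2(intensity + 16), with controls in blue, dn-cJun-labelled arrays in red, controls 14 and 15 as open circles, and bars for the mean and SD of each group of 5; every panel spans a range of the same width. Me1 was high on controls 11 to 13 only, and control 12 was the highest control in the 8 other genes.

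Me1, which encodes cytosolic malic enzyme, showed the largest difference of the 9 genes. Its log2 signal on controls 11 to 15 was 13.83, 13.82, 13.72, 13.15 and 12.96, and on dn-cJun 16 to 20 it was 12.89, 13.17, 13.09, 12.78 and 12.93. Controls 11 to 13 lay above all other arrays, whereas controls 14 and 15 lay inside the range of the dn-cJun-labelled arrays. This gave -0.52 as log2 fold change (SE 0.16, 95% interval -0.87 to -0.18, limma adjusted p = 0.152), or 69.6% of the control signal. Without controls 14 and 15 Me1 fell by 0.82 on the log2 scale (SE 0.09, limma adjusted p = 0.00219), to 56.6% of the control signal, and every array labelled dn-cJun lay below controls 11 to 13, as for 4.93% of all genes. A model term for controls 14 and 15 makes the same comparison with controls 11 to 13, so it is no separate support. It gave -0.82 for Me1 (limma adjusted p = 0.00117, in a fit that called 1.22% of all genes).

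The further Me1 probe set gave a smaller difference in the same direction. It read 12.63, 12.82, 12.71, 12.13 and 11.98 on the controls and 12.04, 12.40, 12.21, 11.75 and 12.43 on the dn-cJun-labelled arrays. Here too controls 11 to 13 stood above the rest. Its log2 fold change was -0.29 (SE 0.17, limma adjusted p = 0.494) over all arrays and -0.56 (SE 0.14, limma adjusted p = 0.115) without controls 14 and 15. In the deposited intensity, before any scaling here, the brighter probe set was at 8658 to 15672 on control and 6384 to 8441 on dn-cJun-labelled arrays. With values as deposited Me1 passed at -0.64 (limma adjusted p = 0.0384), but the median gene was then at -0.19, and relative to it Me1 was at -0.45.

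The other sources of NADPH did not pass. Of 9 tested genes listed as NADPH suppliers besides Me1, 3 were lower and 6 higher, with a median log2 fold change of 0.04, and none passed in either direction. With controls 14 and 15 left out 5 of the 9 were lower, the median was -0.00039 and again none passed. Pgd, an enzyme of the pentose phosphate pathway, was at -0.37 (SE 0.14, limma adjusted p = 0.239; -0.43 with those controls left out), and its 3 further probe sets were at -0.43, -0.40 and -0.37. Idh1, cytosolic isocitrate dehydrogenase, was at 0.17 (SE 0.06, limma adjusted p = 0.229; 0.19 with them left out). Its other probe set was at -0.09.

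Acly had the next largest difference. On controls 11 to 15 its log2 signal was 12.95, 13.92, 13.32, 12.89 and 12.79, and on dn-cJun 16 to 20 it was 12.82, 12.72, 12.70, 12.57 and 13.21. Control 12 was the highest array, and the groups overlapped, although 3 dn-cJun-labelled arrays lay below every control. The log2 fold change was -0.37 (SE 0.19, 95% interval -0.77 to 0.03, limma adjusted p = 0.380). It was -0.60 (SE 0.19, limma adjusted p = 0.194) without controls 14 and 15, and -0.18 without control 12 (limma adjusted p = 0.519). Both further probe sets of Acly above the filter were lower, at -0.44 (SE 0.22) and -0.22 (SE 0.16). The other 3 Acly probe sets were below the filter, at log2 signals of 4.14 to 7.44, and were not tested.

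Acss2, the acetyl-CoA synthetase of cytosol and nucleus, had unlike estimates from its probe sets. The brightest gave 11.68, 12.35, 12.23, 11.95 and 11.58 on the controls and 11.67, 11.60, 11.78, 11.67 and 12.16 on the dn-cJun-labelled arrays. These ranges overlapped almost fully, and the log2 fold change was -0.18 (SE 0.15, 95% interval -0.50 to 0.14, limma adjusted p = 0.622). The next brightest gave 11.86, 11.88, 11.89, 11.47 and 11.36 on the controls and 11.24, 10.92, 11.26, 10.91 and 11.46 on the dn-cJun-labelled arrays, so that 4 of 5 lay below every control.

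That second Acss2 probe set had the smallest p of the 17, at -0.53 (SE 0.13, limma adjusted p = 0.0959 over 27022 probe sets). It passed once controls 14 and 15 were left out, at -0.72 (SE 0.12, limma adjusted p = 0.0386). The dimmest of the 3 gave 0.05 (SE 0.21). The within-array log2 difference between the second and the brightest probe set changed by -0.35 in dn-cJun-labelled arrays (exact permutation p = 0.0317, adjusted 0.0952 over 8 such comparisons), so unequal change of the 2 probe sets did not pass.

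Slc25a1, the citrate carrier, was at nearly the same mean in both groups. It read 12.46, 12.61, 12.52, 12.19 and 12.07 on the controls and 12.37, 12.44, 12.38, 12.23 and 12.53 on the dn-cJun-labelled arrays. Controls 14 and 15 were the lowest of all 10 arrays. The log2 fold change was 0.02 (SE 0.10, 95% interval -0.20 to 0.24, limma adjusted p = 0.951). It was -0.14 (SE 0.08, limma adjusted p = 0.476) without controls 14 and 15.

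Of the other genes listed as suppliers of citrate and acetyl-CoA, none of 10 passed, with 4 lower, 6 higher and a median of 0.06. Leaving out controls 14 and 15 gave 4 lower, a median of 0.12 and no call. Mlycd, which encodes the decarboxylase that turns malonyl-CoA back into acetyl-CoA, had the smallest p. It was at 10.31 to 10.50 on control and 10.53 to 10.78 on dn-cJun-labelled arrays, ranges that do not overlap, as in 4.22% of all genes. Its log2 fold change was 0.29 (SE 0.08, limma adjusted p = 0.111), and 0.32 (limma adjusted p = 0.152) with those controls left out. Slc25a10, the dicarboxylate carrier, was at 0.12 (SE 0.09, limma adjusted p = 0.582). It was 0.11 when controls 14 and 15 were omitted.

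Fasn, the synthase itself, was somewhat lower without passing the test. Its log2 signal was 11.89, 12.47, 11.99, 12.04 and 11.57 on controls 11 to 15 and 11.70, 11.64, 11.75, 11.58 and 12.07 on dn-cJun 16 to 20. All 5 of the latter lay inside the range of the controls, 4 of them below the median control. The log2 fold change was -0.24 (SE 0.14, 95% interval -0.55 to 0.06, limma adjusted p = 0.447), or 84.5% of the control signal. It was -0.37 (SE 0.14, limma adjusted p = 0.271) without controls 14 and 15, and -0.12 without control 12.

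Acaca, the cytosolic carboxylase, had a log2 fold change near 0 by its brightest probe set and below 0 by its second, and neither passed. The brightest read 10.41, 11.20, 10.87, 10.48 and 10.93 on the controls and 10.65 to 10.90 on the dn-cJun-labelled arrays, which lay inside the range of the controls. Its log2 fold change was 0.02 (SE 0.13, 95% interval -0.27 to 0.31, limma adjusted p = 0.961). The second read 8.63, 9.01, 8.62, 8.55 and 8.05 on the controls and 8.33, 8.26, 7.26, 7.55 and 7.39 on the dn-cJun-labelled arrays.

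On this second Acaca probe set dn-cJun 18 to 20 lay below every control. Its log2 fold change was -0.82 (SE 0.23, limma adjusted p = 0.138), and -0.99 (SE 0.25, limma adjusted p = 0.130) without controls 14 and 15. Its within-array difference from the brightest changed by -0.84 between the groups (exact permutation p = 0.0397, adjusted 0.0952), which did not pass. Within groups the 2 probe sets correlated at r = 0.14 over the 10 arrays, against 0.89 for the 2 of Me1 and 0.98 for the 2 bright ones of Thrsp. Which exons the Acaca probe sets read was not examined.

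Acacb, whose malonyl-CoA restrains fatty acid entry into mitochondria, was at 8.91 to 9.70 on control and 9.18 to 9.68 on dn-cJun-labelled arrays. Its log2 fold change was 0.12 (SE 0.16, 95% interval -0.23 to 0.48, limma adjusted p = 0.782), and 0.17 without controls 14 and 15. It was the only 1 of the 9 genes that stayed higher without these controls. A second Acacb probe set was below the filter, at 4.58 to 6.29 and 4.69 to 5.37, and was not tested.

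**Figure D2:**
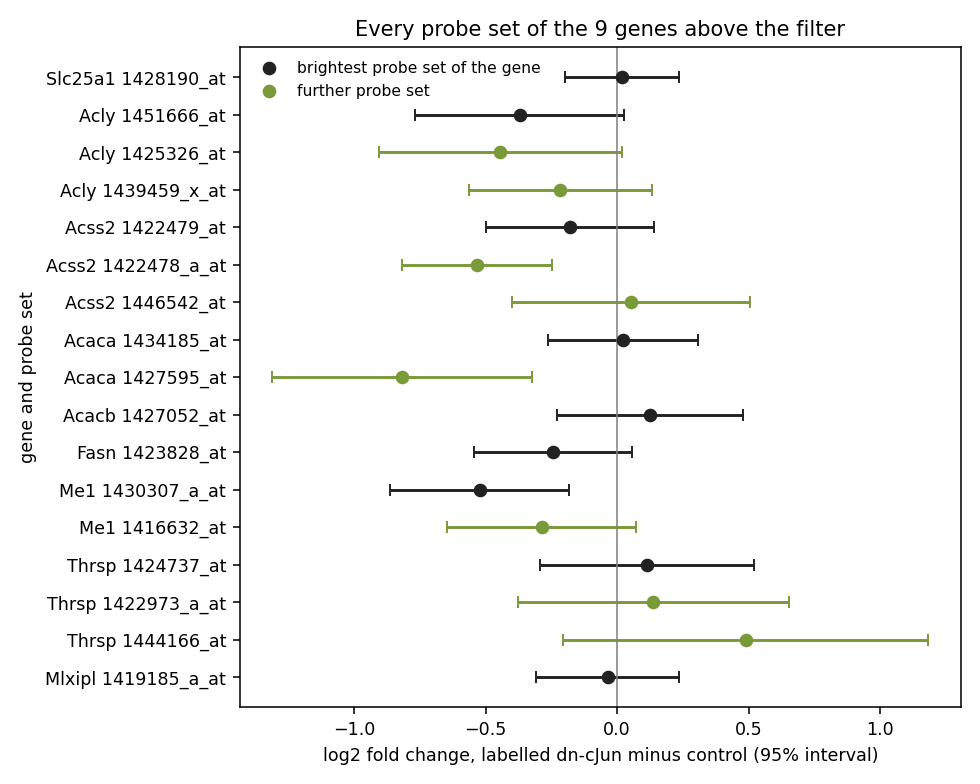
Log2 fold change (dn-cJun-labelled arrays minus control) with its 95% interval for the 17 probe sets above the filter, in black for the brightest of each gene and in green for the others. The intervals of the brightest Me1 probe set and of the second ones of Acss2 and Acaca lay below 0 before adjustment over all probe sets, and none passed after it.

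Mlxipl, the gene of ChREBP, varied more among the dn-cJun-labelled arrays than between the groups. It read 12.13, 12.39, 12.21, 12.11 and 12.01 on the controls and 11.80, 12.16, 11.97, 12.13 and 12.61 on the dn-cJun-labelled arrays. Both the lowest and the highest of the 10 arrays were labelled dn-cJun, numbers 16 and 20. The log2 fold change was -0.04 (SE 0.13, 95% interval -0.31 to 0.24, limma adjusted p = 0.923), and -0.11 (SE 0.15) without controls 14 and 15.

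Thrsp, the Spot 14 gene, was at 13.90, 14.81, 13.94, 13.83 and 13.52 on the controls and 14.02, 13.95, 13.90, 14.22 and 14.48 on the dn-cJun-labelled arrays. Control 12 was the highest array and control 15 the lowest. The log2 fold change was 0.11 (SE 0.19, 95% interval -0.30 to 0.53, limma adjusted p = 0.832). It was -0.10 (SE 0.19) without controls 14 and 15 and 0.31 without control 12. Its bright second probe set gave 0.14 (SE 0.24), and a dim one gave 0.49 (SE 0.32).

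Partners and sugar-responsive targets of ChREBP did not pass either. Of 13 tested, 6 were lower and 7 higher, with a median of 0.02 and no call in either direction. With controls 14 and 15 left out 4 of 13 were lower, the median was 0.14 and none passed. G6pc, the glucose-6-phosphatase catalytic subunit, was at 0.72 (SE 0.30, limma adjusted p = 0.283). Without those controls it was 0.44. Gpd1, glycerol-3-phosphate dehydrogenase, was at 0.24 (SE 0.11, limma adjusted p = 0.351). It was 0.11 when controls 14 and 15 were omitted. The further probe sets of Gpd1 were at 0.10 and -0.05.

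Among 20 tested regulators of lipogenesis, 13 were lower (49.7% of all genes) and 7 higher, with a median of -0.07. Of these 1 was called lower, where 0.432% of all genes were. With controls 14 and 15 left out 12 were lower (48.8% of all genes), the median was -0.07 and the same 1 was called. This was Insig2, which retains SREBP in the endoplasmic reticulum. It fell from 11.73 to 12.24 in the controls to 11.18 to 11.40 in the dn-cJun-labelled arrays, by 0.73 on the log2 scale (SE 0.10, limma adjusted p = 0.00767), and by 0.88 without controls 14 and 15. Its further probe sets were at -0.70 and -0.69. Insig1, its relative, was at 0.29 (SE 0.09, limma adjusted p = 0.167). Without those controls it was 0.16. Srebf1, the gene of SREBP-1c, singled out after its value was seen, was at 0.27 (SE 0.21, limma adjusted p = 0.609). It was 0.24 when controls 14 and 15 were omitted.

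Of 16 tested genes listed for fatty acid modification and esterification, 9 were lower (49.7% of all genes) and 7 higher. Their median was -0.10, and 1 was called lower, where 0.432% of all genes were. This was the desaturase Scd1, at -0.93 (SE 0.16, limma adjusted p = 0.0228), whose further probe set was at -1.49. Scd2, a related desaturase, was at -0.66 (SE 0.17, limma adjusted p = 0.106). Leaving out controls 14 and 15 gave -0.59. Lpin1, of the same list and singled out after its value was seen, was higher, at 1.21 (SE 0.34, limma adjusted p = 0.127). Its further probe set was at 1.07, and without these controls Lpin1 was at 1.18. With both controls left out, 13 of 16 were lower (48.8% of all genes) with a median of -0.22. Then 2 were called lower (0.306% of all genes), Scd1 at -1.16 (limma adjusted p = 0.00685) and the elongase Elovl3, which moved from 0.41 (SE 0.90) to -1.44 (SE 0.25, limma adjusted p = 0.0343) and is named here after its values were seen.

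**Figure D3:**
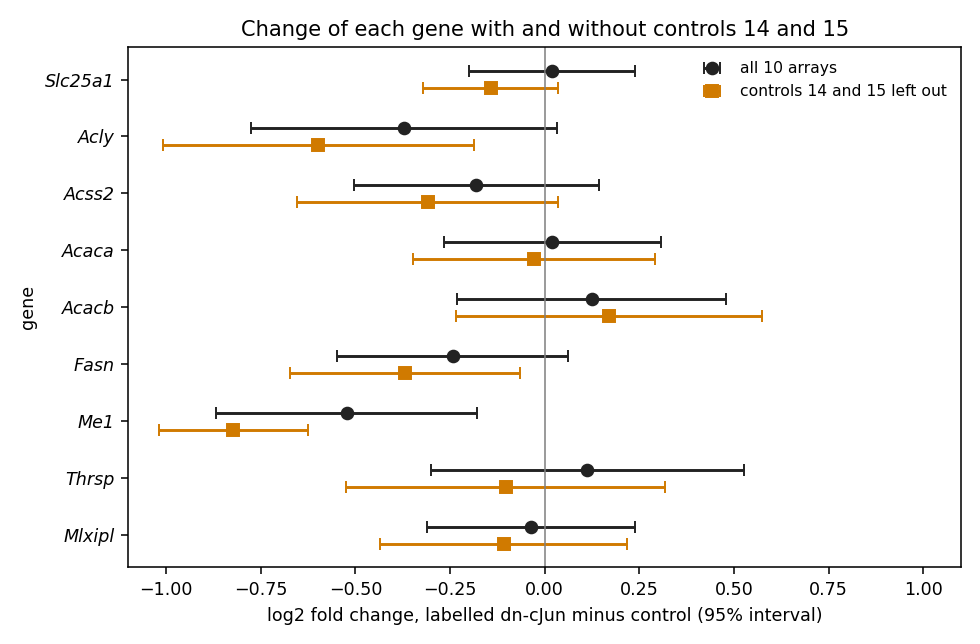
Log2 fold change (dn-cJun-labelled arrays minus control) of the 9 genes with 95% intervals, over all 10 arrays (black circles) and without controls 14 and 15 (orange squares), on a linear axis of log2 units. Without these controls the intervals of Me1, Acly and Fasn lay below 0, and only Me1 passed after adjustment.

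Whether the genes changed unequally was tested on the within-array log2 difference of each pair, in which a scale factor common to an array cancels. Of 36 pairs, 8 had an unadjusted exact permutation p under 0.05 and none passed after adjustment over the 36 (smallest adjusted p = 0.143, with the smallest p the design allows being 0.00794). For Me1 relative to Slc25a1 the difference changed by -0.54 in dn-cJun-labelled arrays (exact permutation p = 0.00794, adjusted 0.143). For Acly relative to Thrsp it changed by -0.48 (exact permutation p = 0.00794, adjusted 0.143), and for Fasn relative to Thrsp by -0.36 (exact permutation p = 0.0317, adjusted 0.204). Without controls 14 and 15 the smallest adjusted p was 0.0804, with the smallest exact permutation p the design then allows being 0.0179. A pair at that p cannot pass over the 36 unless many others reach it too, so this test decides little.

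The genes varied together among mice of the same group. After each gene's group mean was subtracted, 35 of 36 pairs had a positive Pearson correlation over the 10 arrays, with a median r of 0.60. How often pairs of other genes correlate positively on these arrays was not examined. By an exact permutation within groups, 12 pairs passed after adjustment over the 36 by Pearson's r, and none by Spearman's rho (6 unadjusted, smallest adjusted p = 0.150). Without the 2 arrays farthest from the median of the first gene the median r was 0.37, and 31 pairs were positive. With controls 14 and 15 left out the median r was 0.67.

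Fasn, Acly and Acss2 were among the pairs with the highest r, with and without the 2 farthest arrays. Fasn and Acss2 correlated at r = 0.89 (exact permutation p = 0.00139, adjusted 0.0356) with rho = 0.87 (exact permutation p = 0.00563, adjusted 0.150), and at r = 0.81 without the 2 farthest arrays. For Fasn and Acly r was 0.89 (exact permutation p = 0.00375, adjusted 0.0356) with rho = 0.65 (exact permutation p = 0.0723, adjusted 0.242), and r was 0.75 without the 2 farthest arrays. For Acly and Acss2 r was 0.87 (exact permutation p = 0.00396, adjusted 0.0356) with rho = 0.72 (exact permutation p = 0.0569, adjusted 0.239), and 0.73 without them.

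The other pairs differed in how far r moved when arrays were left out. For Acly and Slc25a1 r was 0.82 (exact permutation p = 0.0112, adjusted 0.0403) with rho = 0.88 (exact permutation p = 0.00896, adjusted 0.150), and 0.80 without the 2 farthest arrays. Fasn and Mlxipl were at 0.68 and 0.69, and Acacb and Thrsp likewise at 0.68 and 0.69, with all arrays and without the 2 farthest. Acly and Thrsp correlated at r = 0.90 (exact permutation p = 0.00819, adjusted 0.0403) with rho = 0.75 (exact permutation p = 0.0278, adjusted 0.167), but at 0.43 without the 2 farthest arrays. Me1 and Slc25a1 correlated at r = 0.90 (exact permutation p = 0.0103, adjusted 0.0403) with rho = 0.87 (exact permutation p = 0.0254, adjusted 0.167), at 0.74 without the 2 farthest arrays, and at 0.46 without controls 14 and 15, on which both were low. Me1 and Fasn were at r = 0.51 (exact permutation p = 0.295, adjusted 0.397) with rho = 0.32 (exact permutation p = 0.442, adjusted 0.587), and at -0.19 without the 2 farthest arrays.

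**Figure D4:**
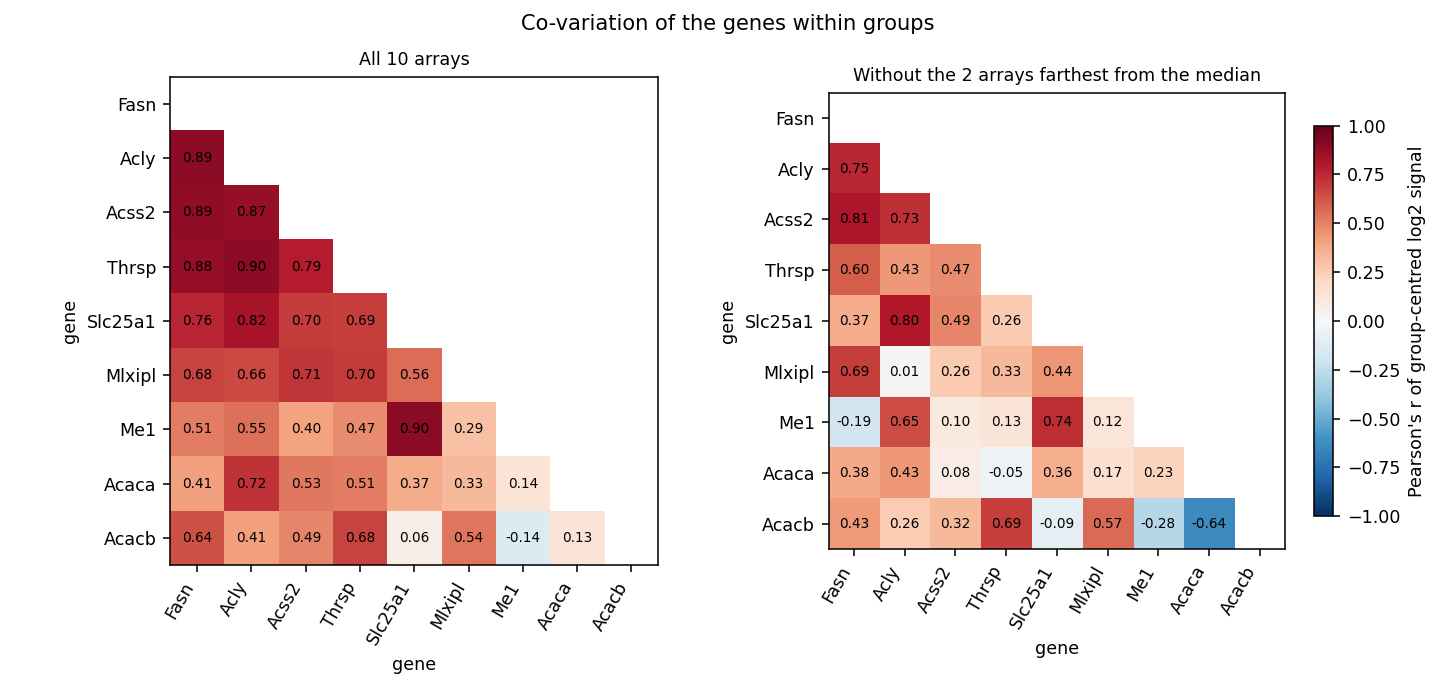
Pearson's r between the genes over arrays after removal of each group mean, for all 10 arrays (left) and without the 2 arrays farthest from the median of the first gene of the pair (right), on a colour scale from -1 to 1. Fasn, Acly and Acss2 stayed at 0.73 to 0.81 with each other on the right, where the median over all pairs was 0.37.

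The mean of the 9 genes, each centred over the 10 arrays, placed the mice in an order that separated the groups only in part. It was 0.51 on control 12, 0.21 on dn-cJun 20 and 0.11 on control 13. Control 11 was at -0.04, control 14 at -0.05 and control 15 lowest at -0.24. Apart from dn-cJun 20, the dn-cJun-labelled arrays were at -0.15 to -0.11, below every control except control 15. A group difference in this mean was not tested. Among 12735 other genes, Acly ranked 9, Acss2 11 and Thrsp 12 in their likeness to Fasn over the group-centred arrays, while Me1 ranked 1254 (r = 0.51) and Acaca 2029 (r = 0.41). Slc25a1 ranked 137, Mlxipl 360 and Acacb 530. In likeness to Mlxipl the other members ranked from 356 (Acss2) to 3556 (Me1). The non-member genes most like Fasn were Sfxn1 (r = 0.97), Slc66a2 (0.96), Pcgf3 (0.91), Cnot6l (0.90) and Ddhd1 (0.90). Those most like Mlxipl were Npepps (r = 0.95), Cfap61 (0.94), Fxyd1 (0.93), 1700003F12Rik (0.93) and Pigt (0.93). These are the highest of 12727 correlations over 10 arrays, so they are high by selection. Whether such values exceed those of unrelated genes was not tested. The ranks rest on all arrays, among them control 12 and dn-cJun 20, on which the mean of the 9 genes was highest.

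Fasn, Acly, Acss2 and Thrsp, which correlated with each other at r = 0.79 to 0.90, are shown here by the 120 bases before the start given by RefSeq (GRCm38.p6), 5′ to 3′ on the gene's strand, with capitals for the letters CCAAT on either strand:
Fasn, chr11:120824548-120824667, minus strand: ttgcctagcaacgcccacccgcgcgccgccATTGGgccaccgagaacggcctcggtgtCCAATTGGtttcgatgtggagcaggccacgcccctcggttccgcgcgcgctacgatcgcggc
Acly, chr11:100528001-100528120, minus strand: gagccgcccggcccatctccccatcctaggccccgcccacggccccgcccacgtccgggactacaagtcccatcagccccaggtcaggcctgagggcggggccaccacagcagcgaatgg
Acss2, chr2:155517923-155518042, plus strand: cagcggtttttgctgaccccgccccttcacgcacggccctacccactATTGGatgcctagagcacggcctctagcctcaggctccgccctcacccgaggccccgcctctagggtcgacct
Thrsp, chr7:97417551-97417670, minus strand: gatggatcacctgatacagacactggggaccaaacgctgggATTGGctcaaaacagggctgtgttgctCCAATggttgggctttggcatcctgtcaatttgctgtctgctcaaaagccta

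In the 250 bases before the start, CCAAT (the letters bound by NF-Y, searched on both strands) was present for 7 of the 9 genes, in 7 of their 11 start windows, and in 33.8% of 32851 windows of all genes. Fasn held it at -90 to -86, -62 to -58 and -59 to -55 from the start, the last 2 overlapping, Thrsp at -79 to -75 and -52 to -48, and Acss2 at -73 to -69. Acly, which varied with them over all 10 arrays, held none in its window. Without the 2 farthest arrays Thrsp correlated less with the others, at r = 0.60 with Fasn, 0.47 with Acss2 and 0.43 with Acly. The AP-1 letters TGANTCA and the related TGACGTCA were in none of the 11 windows, and in 6.75% and 1.55% of all windows. The E-box CACGTG was in 1 window each of Mlxipl and Slc25a1 (6.02% of all windows), and the sterol element letters TCACNCCAC in the other window of Mlxipl (1.05%). The windows of Acaca, Acacb and Fasn, and 1 each of Me1 and Mlxipl, lie inside the annotated spans of these genes. A match is a description of letters, not of a bound site.

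Among all genes tested 49.7% were lower and 0.777% passed in either direction, which is the background for the marker counts. Of 10 macrophage and Kupffer cell markers 7 were lower and 2 passed. The summed deposited intensity of the 10 was 27742 to 44045 on control and 23241 to 29571 on dn-cJun-labelled arrays. Of 9 hepatocyte markers 8 were higher and none passed, with sums of 325187 to 372392 and 368189 to 432073. Adipocytes also express the lipogenic genes. Of 7 adipocyte markers with a probe set, only Slc2a4 and Car3 were above the filter level of 6.06, and Adipoq was at 4.39 to 5.54 on control and 4.20 to 5.63 on dn-cJun-labelled arrays. Of 4 bile duct markers 3 were lower (median -0.36 on the log2 scale), with sums of 407 to 655 on control and 274 to 456 on dn-cJun-labelled arrays. Of the endothelial markers 2 of 7 were lower (sums 6333 to 7864 and 5590 to 7217), of the stellate cell markers 3 of 6 (5768 to 7943 and 5762 to 6575), and of the lymphocyte markers 2 of the 5 above the filter (663 to 1323 and 515 to 943). None of these 4 lists held a marker that passed. All sums here are of unscaled values, on which the median gene was at -0.19 in dn-cJun-labelled arrays. A lower sum is thus not by itself a sign of fewer cells. On normalized values the median log2 fold change was 0.10 for the endothelial, -0.10 for the stellate cell and 0.01 for the lymphocyte markers. It was -0.15 for the macrophage and Kupffer cell markers and 0.04 for the hepatocyte markers. The part of these cells in the values of the 9 genes was not tested.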

How the data were processed

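The deposited value of a probe set is its intensity, not log-transformed; no software is named in the labels used here. The median deposited intensity of an array was 85.3 to 127.5, and arrays correlated at 0.944 to 0.965. Here log2(intensity + 16) was quantile normalized (limma 3.58.1, R 4.3.3). Fold changes on this scale understate those of dim genes. The 64 control probe sets were left out after normalization. Each gene stood by its brightest probe set with a single symbol, and a mean at or above the 40th percentile over probe sets was required, also in a fit of every probe set. The comparison (dn-cJun-labelled minus control) used limma (lmFit, eBayes with an intensity trend; two-sided), Benjamini-Hochberg adjusted over all genes or probe sets, at a threshold of 0.05. Pair differences and correlations were tested by two-sided exact permutation over 252 splits or 14400 within-group orders. The fit was tested on simulated data.

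The labels name 1 mouse per array. The Trizol entry in the extraction protocol of control 11 differs from the other 9, which name Affymetrix. The 9 genes, the gene and marker lists and the exclusion of controls 14 and 15 were chosen with earlier results of these data known. Named genes were all 9 members, of each pathway list up to 4 members past the threshold (the 2 with the smallest p where fewer than 2 passed), and the 5 genes most like Fasn and Mlxipl. Start windows and gene names come from RefSeq tables (GRCm38.p6). The tests on pairs, and the p-values of the correlations, were added after seeing the data.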

Additional observations from a re-analysis of the deposited data

How the results depend on the processing

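The log2 fold changes of Fasn, Acly, Me1 and Acss2 were below 0 under every alternative run. The median of the 9 genes, -0.04, was -0.22 with values as deposited, -0.24 with the mean of probe sets (7 of 9 lower) and -0.14 without controls 14 and 15. With 1 array left out no member gene or probe set passed (0 to 0); 4 to 7 genes were lower, the median was -0.16 to 0.02, and 13 (without dn-cJun 17) to 199 (without control 12) genes passed in all. Ranges that spanned 0 were -0.073 to 0.13 for Acaca, -0.056 to 0.079 for Slc25a1, -0.0068 to 0.31 for Thrsp and -0.16 to 0.047 for Mlxipl. Me1 came to a limma adjusted p of 0.0540 to 0.273 in these 10 fits. With unscaled deposited values, under which the median gene was at -0.19, 1 member gene and 3 member probe sets passed, 8 genes were lower, 490 genes passed, and Acaca was at -0.19, Acacb at -0.10 and Slc25a1 at -0.16. Without controls 14 and 15, and with a term for them (added after seeing the data), 1 member gene and 2 member probe sets passed and 8 genes were lower, with 52 and 156 genes past the threshold. Acaca was then at -0.028 in both, Slc25a1 at -0.14 in both and Thrsp at -0.10 in both. With equal array medians Acaca was at -0.026 and 65 genes passed. With the mean of probe sets Acaca was at -0.40, Acacb at -0.24, and 44 genes passed. In eBayes without trend 9 genes passed, and 250 did at an adjusted p under 0.1. The cause of these shifts was not tested. No paired analysis was possible because the replicate numbers do not repeat between the groups. With 5 arrays a group, the number of arrays limits the precision.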
